A study of Homo sapiens with 9 samples.

Results

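The libraries with high TLX1 mRNA are the 3 libraries labelled TLX1 siRNA1, of 9 libraries in all, and they were set against the 6 libraries labelled TLX1 siRNA2 or NTC. The rule that chose them joins the label to the measured level: TLX1, in CPM (gene counts scaled to a common library total), stood near 400 in each of the 3 and below 250 in each of the 6. All 9 libraries hold polyA+ RNA of the human leukaemia line ALL-SIL, derived from T-cell acute lymphoblastic leukaemia, abbreviated T-ALL, after electroporation with an siRNA. Per the labels, 3 libraries each came from cells given TLX1 siRNA1, TLX1 siRNA2 and the NTC siRNA, numbered as replicates 1 to 3. The sources used here give neither the sequences of the siRNAs, nor dose and harvest time, nor the meaning of NTC. All groups share the same line and the same delivery, and no group without electroporation was analysed here. Whether the replicates of a label came from separate cultures is not stated, and the p-values therefore cover the spread among these 9 libraries alone, which may be technical.

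TLX1 is a homeobox transcription factor that thymocytes do not normally express and that drives a subset of T-ALL, often together with activating lesions of NOTCH1. TLX1-driven leukaemias carry the surface and gene expression features of cortical thymocytes, the stage at which T cell receptor genes are rearranged by the RAG recombinase. An siRNA is a short duplex RNA whose guide strand directs Argonaute proteins to cleave a matching mRNA, and a guide can also lower other mRNAs that pair only with its seed, a short stretch near its 5′ end.

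TLX1 (ENSG00000107807.12, GRCh38, plus strand of chromosome 10 from 101130505 to 101137789) goes against the label. It stood at 402, 452 and 401 CPM in replicates 1 to 3 labelled siRNA1, against 198, 225 and 185 CPM in those labelled siRNA2 and 179, 168 and 183 CPM in those labelled NTC. The 3 libraries labelled with this TLX1 siRNA were the 3 highest, with a gap between the lowest of them at 401 CPM and the highest of the others at 225 CPM. The means were 418 ± 29.2 CPM (SD, n = 3) in the libraries labelled siRNA1 and 189.7 ± 19.9 CPM (SD, n = 6) in the 6 others, a ratio of 2.2, which was 2.13, 2.3 and 2.17 within replicate numbers 1, 2 and 3. These values chose the libraries and are given without a test. Why the level goes against the label was not tested, and directions below are given by label: "under siRNA1" or "siRNA1 library" means a library that carries this label, and likewise for siRNA2 and NTC.

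**Figure D1:**
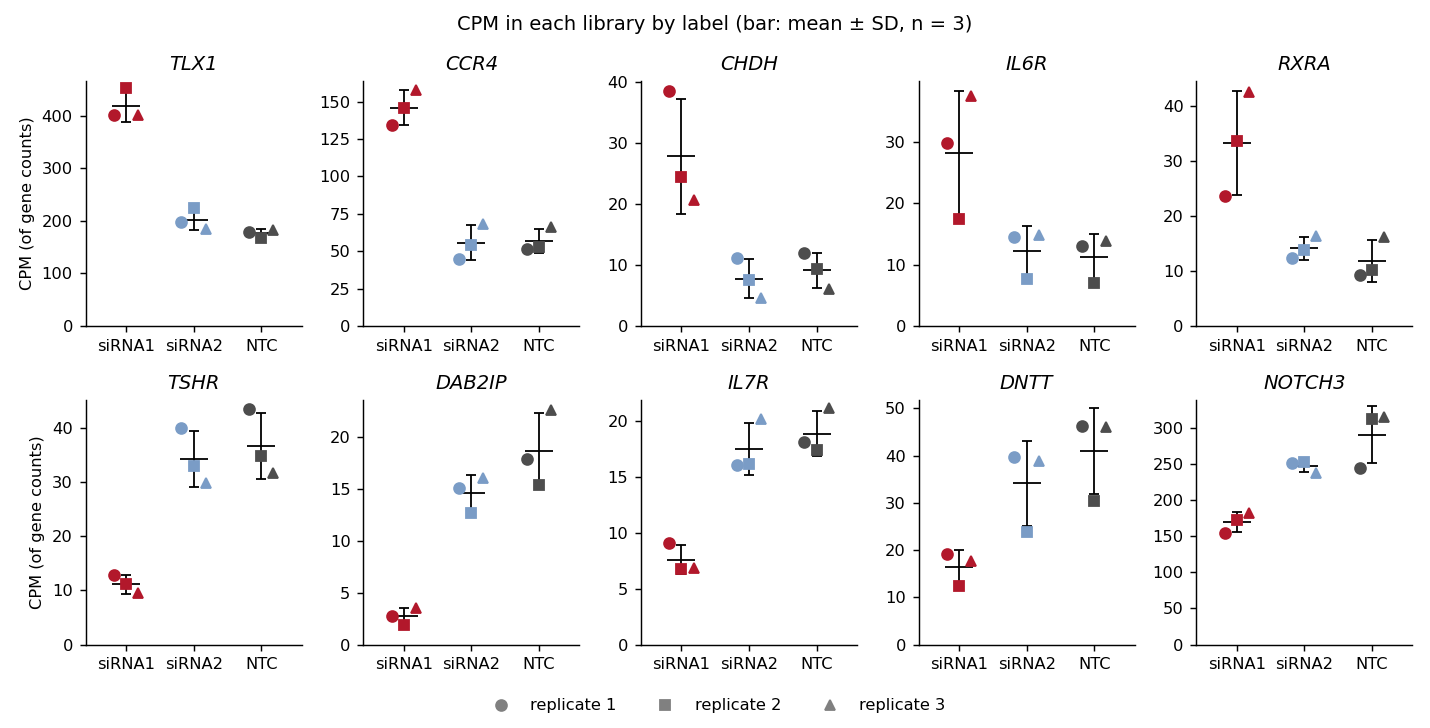
CPM of TLX1 and 9 other genes (vertical axes, each from 0) in every library, with columns for the labels siRNA1, siRNA2 and NTC; circles, squares and triangles are replicates 1, 2 and 3, and bars give the mean ± SD (n = 3). TLX1, CCR4, CHDH, IL6R and RXRA are higher in all 3 libraries labelled siRNA1 than in the 6 others, and TSHR, DAB2IP, IL7R, DNTT and NOTCH3 are lower in all 3.

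The libraries held between 58305492 and 99524663 gene counts, and the 3 labelled siRNA1 held between 91864795 and 95072634. The defining T cell markers were present in all 9 libraries, with CD3D at a mean of 538 CPM and CD3E at 438 CPM. Of the 7 T cell markers 4 passed the test described below (57.1%, against 12.7% of all genes tested). CD7 (log2 fold change 0.55) and CD28 (0.31) were higher under the siRNA1 label, and CD3G (−0.44) and CD2 (−0.52) were lower. Without the replicate block of that test 1 was higher and 1 lower, and CD28 and CD2 did not pass. NK, myeloid and erythroid markers were at or near 0. The 5 NK markers summed to between 0.0108 and 0.0435 CPM in the libraries labelled siRNA1 and between 0 and 0.0141 CPM in the others, with NCAM1, NCR1 and KLRF1 at 0 in all 9. Myeloid markers summed to between 0.926 and 1.13 CPM against 0.717 to 1.52 CPM, and erythroid and megakaryocyte markers to between 0.226 and 0.381 CPM against 0.208 to 0.446 CPM, with HBA1 and PF4 at 0. B cell markers, which summed to between 22.6 and 27.4 CPM against 20.5 to 31.9 CPM, did not separate the groups either. Of the epithelial and fibroblast markers VIM, which T cells also express, alone was tested, at a mean of 261 CPM, and did not pass, and KRT18 was at 0. The first principal component of the libraries (35.3% of the variance) separated replicate 1 from replicates 2 and 3, so replicate number was kept as a block in the test.

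Against the 6 others, the libraries labelled siRNA1 differed at many genes, most of them by little. Besides TLX1, 18553 genes were tested with edgeR's quasi-likelihood test, and 2357 passed, with Benjamini-Hochberg adjusted p under 0.05, which is 12.7% of the genes tested. Of these, 1169 were higher (6.3%) and 1188 were lower (6.4%). The median fold was 1.28 among the higher and 1.25 among the lower genes, 270 and 221 differed more than 1.5-fold, and 74 and 52 differed more than 2-fold. The direction was the same in all 3 replicate numbers for 1159 of the higher and all 1188 of the lower genes. The test, run on the same libraries with replicate number as a block, favours such genes, so this agreement is largely given by the selection.

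Without the replicate block 483 genes passed, 197 higher and 286 lower (2.6%). The block removes differences between replicate numbers that the 3 labels share, and the deviations of same-numbered libraries from their label means correlated at 0.569 to 0.819. The count fell to 1110, 1495 and 1162 without the library labelled siRNA1 of replicate 1, 2 and 3, and to 1018 and 1562 without all libraries of replicate 1 and replicate 2. All 3 libraries labelled siRNA1 lay above all 6 others at 699 of the genes tested (3.77%) and below them at 740 (3.99%), 7.76% together. Among the genes that passed, 482 higher and 558 lower ones were separated in this way. Protein-coding genes passed more often in the lower direction, 1029 of 12408 (8.29%) against 913 higher (7.36%), and long noncoding RNA (lncRNA) genes more often in the higher one, 188 of 3361 (5.59%) against 96 lower (2.86%).

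**Figure D2:**
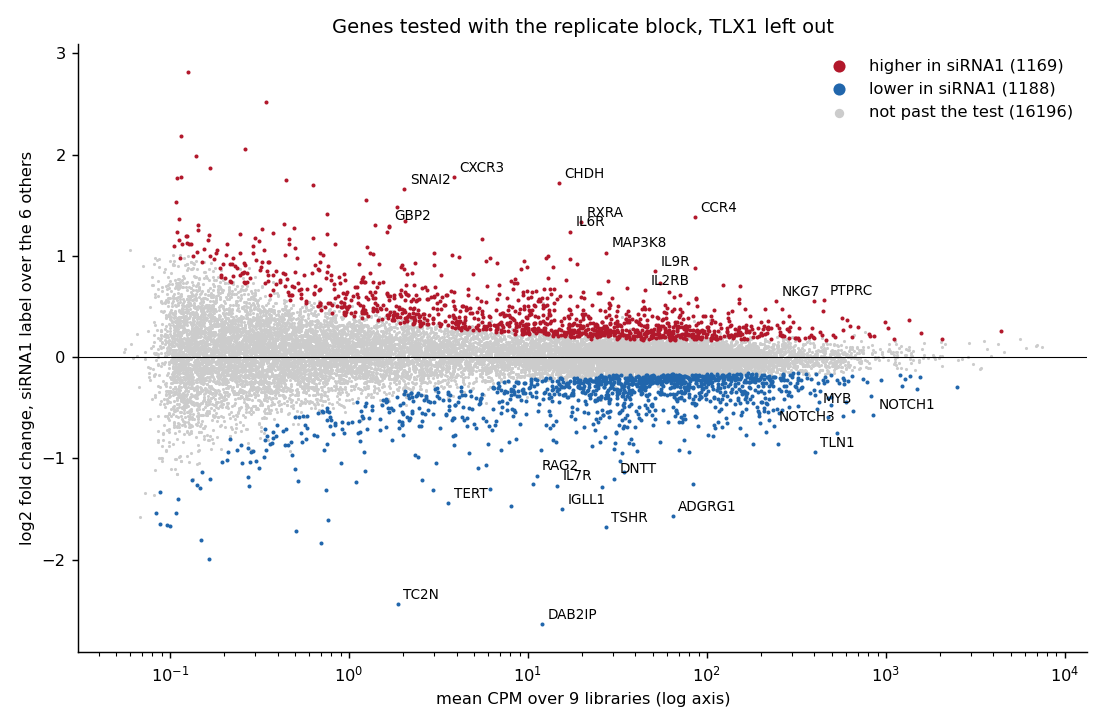
Log2 fold change, siRNA1 label over the 6 others (vertical axis), against mean CPM over 9 libraries (horizontal, log axis), for the 18553 genes tested with the replicate block; red genes were higher (1169), blue genes lower (1188) and grey genes did not pass. DAB2IP at −2.64 and TC2N at −2.44 lie lowest among genes above 1 CPM, and CXCR3 at 1.78 and CHDH at 1.72 lie highest among the labelled genes.

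The 6 libraries used as the reference carry 2 labels. Between siRNA2 and NTC 28 genes passed under the same block (0.151%), 16 higher and 12 lower, 1552 had an unadjusted p under 0.05, and TLX1 itself differed by a log2 fold change of 0.18. This count was unstable: it was 4 without siRNA2 replicate 3, 65 without siRNA2 replicate 1, 78 without siRNA1 replicate 2 and 108 without NTC replicate 1, and 93, 81 and 6 without all libraries of replicate 1, 2 and 3. Of the 120 genes named by the rule below, 1 passed between siRNA2 and NTC, ADGRG1.

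DAB2IP, TC2N and TSHR had the largest folds among the lower protein-coding genes named. DAB2IP (chromosome 9 from 121567057 to 121785530), a GTPase-activating protein that inactivates Ras, stood at 2.75, 1.93 and 3.51 CPM in the libraries labelled siRNA1, against 15.1, 12.7 and 16.1 CPM in those labelled siRNA2 and 17.9, 15.4 and 22.6 CPM in those labelled NTC. The highest value under the siRNA1 label was well below the lowest of the others, and the log2 fold change was −2.64 (SE 0.12, edgeR adjusted p = 2.1e-11). TSHR (chromosome 14 from 80954989 to 81146302), the receptor for thyrotropin, stood at 12.9, 11.1 and 9.46 CPM under the siRNA1 label, against 40, 33.1 and 29.8 CPM under siRNA2 and 43.6, 34.8 and 31.8 CPM under NTC. In all 3 labels TSHR was highest in replicate 1, and within each number the siRNA1 library was lowest (log2 fold change −1.68, SE 0.07, adjusted p = 4.11e-12). TC2N, a protein with tandem C2 domains, had 0.231, 0.679 and 0.544 CPM under siRNA1, against 2.05, 2.26 and 2.61 CPM under siRNA2 and 2.71, 2.97 and 2.9 CPM under NTC, a log2 fold change of −2.44 (SE 0.19, adjusted p = 3.89e-08). Again no library labelled siRNA1 reached the level of any other.

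ADGRG1 (chromosome 16 from 57610652 to 57665580), an adhesion G protein-coupled receptor of lymphocytes and progenitor cells, was the only one of the 120 named genes that also passed between siRNA2 and NTC. It stood at 22.8, 30.5 and 31.5 CPM under siRNA1, at 66.3, 70.2 and 72.4 CPM under siRNA2 and at 79.9, 96.2 and 112 CPM under NTC. The 3 labels did not overlap: siRNA1 was lowest and NTC highest. The log2 fold change was −1.57 (SE 0.12, edgeR adjusted p = 2.19e-08) against the 6 others and −0.46 (edgeR adjusted p = 0.00425) for siRNA2 against NTC.

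PTPRU, a receptor tyrosine phosphatase, averaged 3.77 ± 1.7 CPM (SD, n = 3) under siRNA1 and 10.2 ± 4.11 CPM (SD, n = 6) in the others (log2 fold change −1.47, adjusted p = 3.52e-07). TERT, the catalytic subunit of telomerase, stood at 1.34, 1.49 and 2.3 CPM under siRNA1, against 5.23, 3.93 and 5.09 CPM under siRNA2 and 3.49, 4.16 and 5.32 CPM under NTC (−1.44, SE 0.13, adjusted p = 1.63e-07). The lowest of the 6 others exceeded the highest library labelled siRNA1. CSGALNACT1, an enzyme that starts chondroitin sulfate chains, averaged 13.6 ± 2.68 CPM against 32.4 ± 2.69 CPM, and TOP1MT, the mitochondrial topoisomerase, 19.3 ± 4.09 CPM against 41.8 ± 7.29 CPM. The remaining genes among the 15 lowest protein-coding ones were DIP2C (−1.31), ALDH3B2 (−1.25), WNK2 (−1.21) and SVOPL (−1.09), besides IGLL1, IL7R and DNTT, which are described with their pathways.

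Chemokine receptors guide the migration of T cells, and they differed in both directions. CCR4 (chromosome 3 from 32951574 to 32956349), a receptor for the chemokines CCL17 and CCL22, stood at 134, 146 and 158 CPM in the libraries labelled siRNA1, against 44.9, 54.0 and 68.4 CPM in those labelled siRNA2 and 51.6, 52.7 and 66.3 CPM in those labelled NTC. The lowest siRNA1 library lay far above the highest of the others, and the log2 fold change was 1.38 (SE 0.06, edgeR adjusted p = 1.68e-11). CXCR3, the receptor for interferon-induced chemokines, had 6.77, 8.55 and 6.49 CPM under siRNA1, against 2.11, 3.75 and 1.51 CPM under siRNA2 and 1.88, 2.28 and 1.41 CPM under NTC (1.78, SE 0.13, adjusted p = 1.41e-08). Replicate 2 was the highest of its label in each case. CCR8, the receptor for CCL1, went the other way: 16.6, 24.4 and 20.0 CPM under siRNA1, against 27.6, 37.3 and 35.2 CPM under siRNA2 and 34.7, 43.9 and 38.1 CPM under NTC (−0.85, SE 0.08, adjusted p = 3.11e-07). Of 16 chemokine and egress receptors tested, 5 were higher (31.2%, against 6.3% of all genes) and 2 lower (12.5%, against 6.4%), or 2 and 1 without the block, with a median log2 fold change of 0.24 against 0.007 over all genes. The same shares of all genes, 6.3% higher and 6.4% lower, stand behind each list below. The others were CCR9 (0.45), ACKR3 (0.57) and GPR183 (0.34), higher, and CXCR6 (−0.68), lower.

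CHDH, the mitochondrial choline dehydrogenase, stood at 38.5, 24.5 and 20.6 CPM under siRNA1, against 11.1, 7.57 and 4.65 CPM under siRNA2 and 11.9, 9.29 and 6.15 CPM under NTC. In each label replicate 1 was highest and replicate 3 lowest, and the lowest siRNA1 library lay above all others (log2 fold change 1.72, SE 0.09, edgeR adjusted p = 5.54e-11). RXRA, the retinoid X receptor that pairs with many nuclear receptors, stood at 23.6, 33.7 and 42.6 CPM under siRNA1, against 12.3, 13.8 and 16.4 CPM under siRNA2 and 9.28, 10.1 and 16.2 CPM under NTC (1.33, SE 0.09, adjusted p = 8.62e-09). Replicate 3 was highest in every label. Among 23 nuclear receptors tested, 5 were higher (21.7%) and 3 lower (13.0%; 2 and 1 without the block; median 0.10). Both retinoic acid receptors that passed were higher, RARG (0.60) and RARA (0.40), as were PPARD (0.20) and THRA (0.21), while RORA (−0.84) and NR1D1 (−0.41) were among the lower ones.

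Genes of varied function completed the higher end. SNAI2, a zinc-finger repressor best known from epithelial cells, had 3.59, 4.36 and 3.28 CPM under siRNA1, against 1.07, 2.05 and 1.22 CPM under siRNA2 and 0.954, 1.03 and 0.839 CPM under NTC (log2 fold change 1.66 with SE 0.16, edgeR adjusted p = 3.27e-07). Of 4 members of the SNAI, ZEB and TWIST families tested, SNAI2 and SNAI3 (0.66) were higher (1 without the block) and none was lower, with a median of 0.56. HLA-DMB, a chaperone of peptide loading on MHC class II, averaged 2.32 ± 0.214 CPM against 0.942 ± 0.216 CPM (1.31), and was the only member called of 7 MHC class II genes tested, whose median level was 0.781 CPM and median log2 fold change 0.11. Of 14 MHC class I presentation genes, HLA-E (0.19) was higher and TAP2 (−0.23) and PSMB8 (−0.22) were lower (0 without the block; median 0.06). GOLGA7B (1.34), the cannabinoid receptor gene CNR2 (1.03), the matrix proteoglycan gene OGN (1.01) and CSF1 (1.00), which encodes a macrophage growth factor, were also among the 15 highest protein-coding genes.

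**Figure D3:**
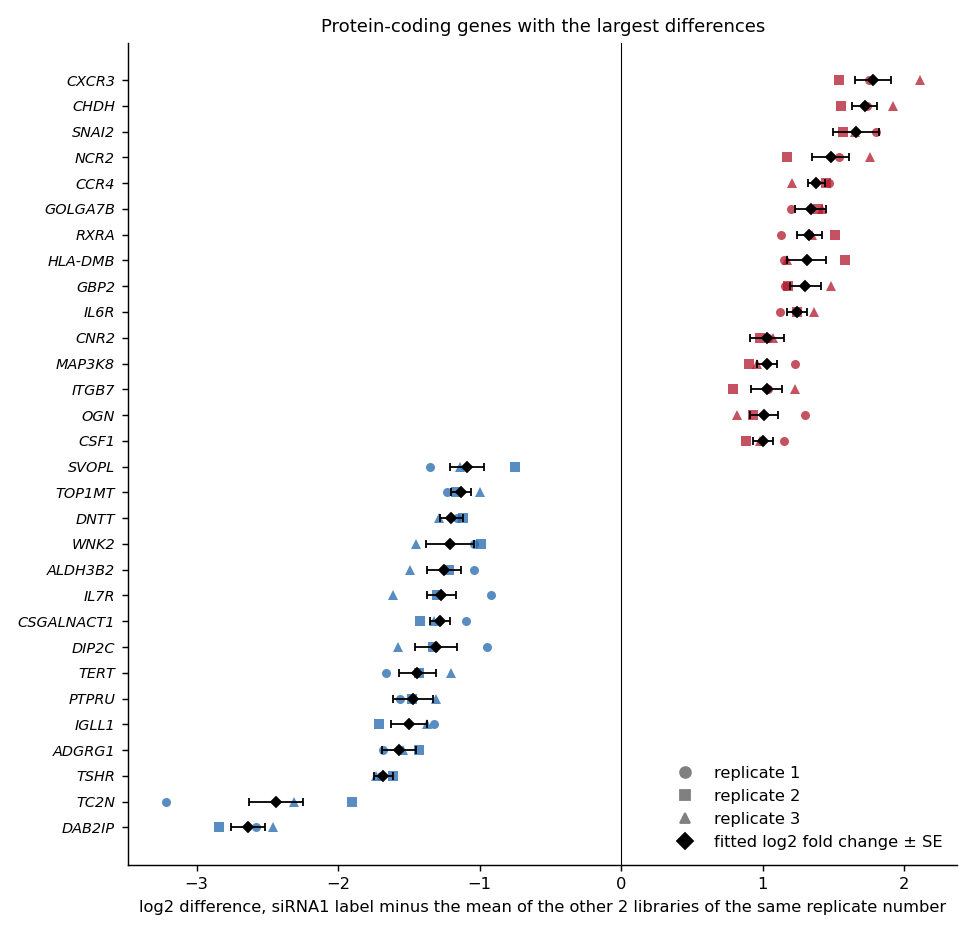
Log2 difference in CPM, library labelled siRNA1 minus the mean of the other 2 libraries of the same replicate number (horizontal axis), for the 15 highest and 15 lowest protein-coding genes (rows); circles, squares and triangles are replicates 1, 2 and 3, and black diamonds with bars are the fitted log2 fold change ± SE. The genes were chosen as separated between the groups, so one side of 0 is given by the choice; the points show the spread between replicate numbers, which is widest for TC2N.

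Recombination and preT genes were lower wherever they passed. Of 14 tested, 7 fell, none rose and 7 did not pass (4 fell without the block), and the median log2 fold change was −0.31 against 0.007 over all genes, where 6.4% were lower. DNTT, the terminal transferase that adds bases at rearranging joints, stood at 19.2, 12.4 and 17.6 CPM under siRNA1, against 39.8, 23.8 and 38.8 CPM under siRNA2 and 46.3, 30.4 and 46.0 CPM under NTC. Replicate 2 was lowest in each label, and the siRNA1 libraries lay below all others (−1.20, SE 0.08, edgeR adjusted p = 9.8e-09). RAG2, a subunit of the recombinase, had 3.51, 6.12 and 8.46 CPM under siRNA1, against 6.61, 11.6 and 20.4 CPM under siRNA2 and 8.78, 12.9 and 22.6 CPM under NTC (−1.17, SE 0.10, adjusted p = 8.05e-08; 0.115 without the block). For RAG2 the groups overlap, with replicate 1 low and replicate 3 high under every label, while within each number the siRNA1 library was lowest. RAG1 was lower by a similar log2 fold change (−1.03), and IGLL1, a surrogate light chain whose close paralogue IGLL5 could share reads, averaged 6.98 ± 1.16 CPM against 19.8 ± 5.74 CPM (−1.50). ARPP21, an RNA-binding protein of immature thymocytes, stood at 13.4, 13.8 and 16.6 CPM under siRNA1, against 23.6, 25.7 and 31.7 CPM under siRNA2 and 22.0, 25.6 and 32.9 CPM under NTC (−0.88, SE 0.07, adjusted p = 1.55e-08). LIG4 (−0.58) and PRKDC (−0.19), both of DNA end joining, were the other members that fell.

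The NOTCH1 pathway, which drives growth of most T-ALL cells, held more lower than higher members. Of 23 tested, 7 were lower (30.4%, against 6.4% of all genes) and 3 higher (13.0%, against 6.3%), or 4 and 1 without the block, with a median log2 fold change of −0.00. NOTCH1 itself stood at 585, 724 and 625 CPM under siRNA1, against 943, 1047.7 and 719 CPM under siRNA2 and 863, 1197.2 and 943 CPM under NTC (−0.57, SE 0.08, edgeR adjusted p = 3.16e-05). The groups overlap at NOTCH1, since siRNA2 replicate 3 lies below siRNA1 replicate 2. NOTCH3, a receptor that is also a NOTCH1 target, stood at 155, 172 and 183 CPM under siRNA1, against 252, 253 and 238 CPM under siRNA2 and 245, 313 and 315 CPM under NTC (−0.68, SE 0.08, adjusted p = 5.18e-06). IL7R, the interleukin-7 receptor alpha chain, had 9.08, 6.79 and 6.86 CPM under siRNA1, against 16.1, 16.2 and 20.2 CPM under siRNA2 and 18.1, 17.4 and 21.2 CPM under NTC (−1.27, SE 0.10, adjusted p = 2.93e-08). For both genes all siRNA1 libraries lay below all others. SHQ1 (−0.52), TRIB2 (−0.28), MYC (−0.32) and DTX1 (−0.21) were lower too, of which MYC lost its call in 2 of the 9 fits that leave out 1 library. The higher members were LFNG (0.79), a glycosyltransferase that modifies NOTCH receptors, NOTCH2 (0.29), and the ligand gene DLL4 (1.53), which averaged only 0.196 CPM under siRNA1 and 0.0643 CPM in the others.

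Thymocyte stage markers moved in both directions. Of 22 tested, 10 were lower (45.5%) and 7 higher (31.8%), with a median of −0.08; without the block 1 was lower and 2 were higher. CD1A, an antigen-presenting molecule of cortical thymocytes, averaged 44.2 ± 12.9 CPM against 69.3 ± 21.2 CPM (−0.64, adjusted p = 9.94e-07; 0.223 without the block), and CD1B (−0.39) and CD4 (−0.34) were lower as well, whereas CD8B (0.54) and CD8A (0.18), the chains of the other coreceptor of this stage, were higher. CD38, an ectoenzyme of immature and activated T cells, averaged 65.5 ± 24.2 CPM against 96.4 ± 30.5 CPM (−0.58). The groups overlap at all of these genes, and their calls rest on differences within replicate numbers. PTPRC, the phosphatase CD45, stood at 598, 541 and 601 CPM under siRNA1, against 370.0, 372 and 446 CPM under siRNA2 and 353, 405 and 401 CPM under NTC (0.56, SE 0.06, adjusted p = 9.35e-07). CD7, a marker of the T lineage, averaged 506 ± 40.1 CPM against 345 ± 56.4 CPM (0.55), and at both genes the groups did not overlap.

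T lineage transcription factors passed more often as lower. Of 37 tested, 11 were lower (29.7%) and 4 higher (10.8%; 5 and 3 without the block; median −0.03). MYB, a regulator of progenitor growth and a T-ALL oncogene, stood at 313, 327 and 332 CPM under siRNA1, against 435, 447 and 491 CPM under siRNA2 and 490.1, 446 and 449 CPM under NTC (−0.51, SE 0.06, edgeR adjusted p = 3.23e-06). No siRNA1 library reached the others. BACH2, a repressor that holds back effector programmes, averaged 16.8 ± 3.75 CPM against 27.1 ± 2.93 CPM (−0.72), BCL11B, a factor of T cell commitment, 124 ± 8.46 CPM against 162 ± 17.5 CPM (−0.40), and TCF7, another, 694 CPM against 895 CPM (−0.38). The higher members were ID3 (0.58), an inhibitor of E proteins, IKZF2 (0.48), RUNX3 (0.53), known for the CD8 lineage, and ETS1 (0.31). Of 8 transcription factor oncogenes of T-ALL tested, MYB, BCL11B and MYC were lower and none was higher (2 lower without the block; median −0.13), while of 26 tumour suppressors 6 were lower, USP7 (−0.47) and ETV6 (−0.26) among them, and PTPN6 (0.26), CDKN1B (0.20) and RB1 (0.20) were higher (1 and 0 without the block; median −0.06).

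**Figure D4:**
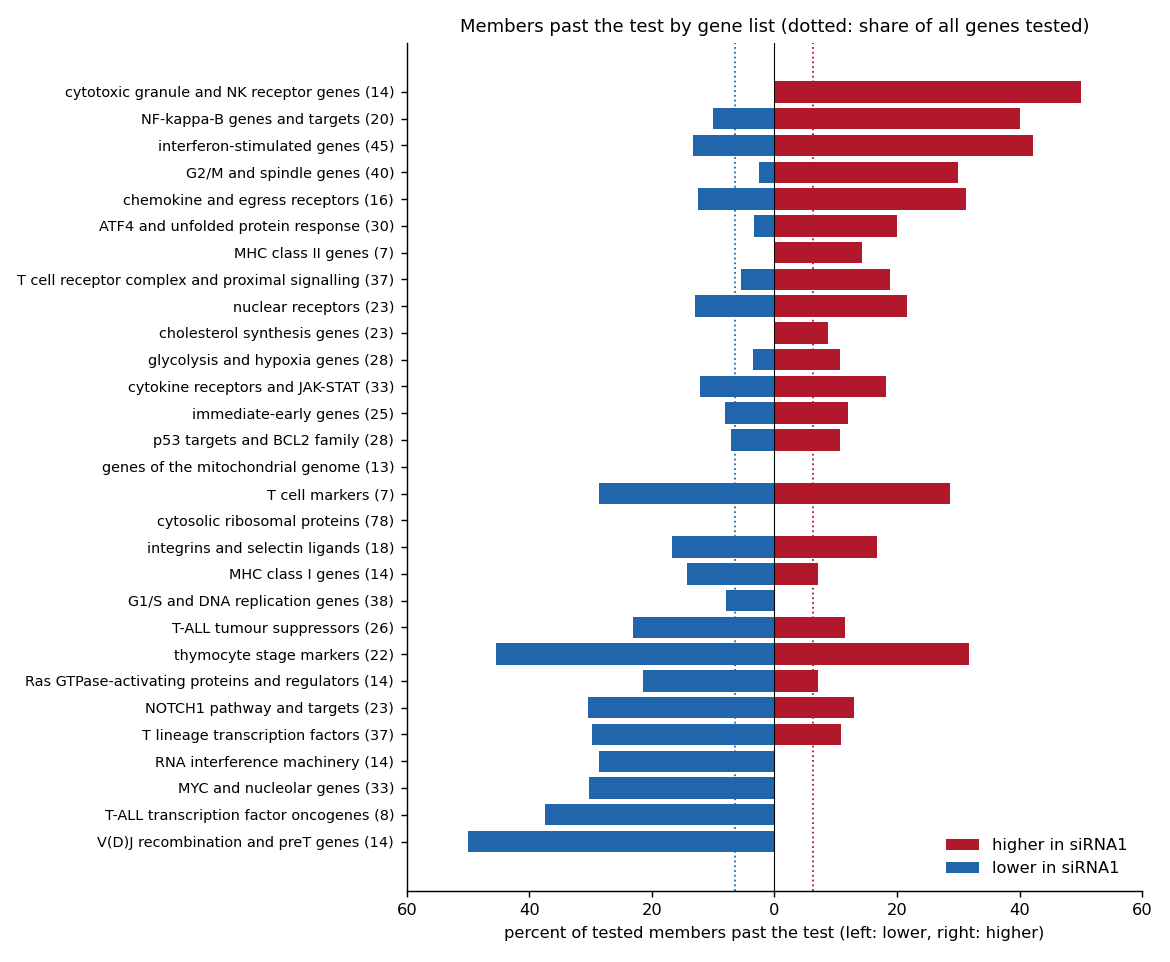
Percent of tested members past the test (horizontal axis; blue bars to the left lower, red bars to the right higher in the libraries labelled siRNA1) for 29 gene lists (rows, tested members in parentheses), with dotted lines at the shares over all genes tested, 6.4% lower and 6.3% higher. V(D)J recombination genes reach 50% on the lower side with 0 higher, cytotoxic and NK receptor genes 50% on the higher side with 0 lower, and ribosomal protein genes 0 on both.

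Cytotoxic granule and NK receptor genes, many of which activated T cells also express, were higher wherever they passed: 7 of 14 tested rose and none fell (2 without the block), with a median log2 fold change of 0.44. Most were low, with a median level of 1.26 CPM. NKG7, a granule membrane protein, stood at 303, 330.1 and 303 CPM under siRNA1, against 215, 239.8 and 185 CPM under siRNA2 and 195, 228 and 206 CPM under NTC (0.55, SE 0.06, edgeR adjusted p = 1.04e-06). NCR2, an activating receptor of NK cells, had 2.87, 3.64 and 3.19 CPM under siRNA1, against 1.07, 1.79 and 0.858 CPM under siRNA2 and 0.877, 1.43 and 0.959 CPM under NTC (1.48, SE 0.13, adjusted p = 9.99e-08). At both genes the siRNA1 libraries lay above all others, and the defining NK markers were at or near 0, as given above. CTSW (0.61) and CD244 (0.43) were among the other 5.

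Cytokine receptors differed by chain. IL6R, which binds interleukin-6, stood at 29.9, 17.4 and 37.5 CPM under siRNA1, against 14.5, 7.67 and 14.8 CPM under siRNA2 and 13.0, 7.07 and 13.8 CPM under NTC (1.24, SE 0.07, edgeR adjusted p = 1.68e-10). Replicate 2 was lowest in each label. IL9R had 77.1, 70.7 and 72.7 CPM under siRNA1, against 42.8, 43.5 and 34.3 CPM under siRNA2 and 39.8, 42.5 and 39.7 CPM under NTC (0.85, SE 0.06, adjusted p = 1.55e-08), and IL2RB, shared by the receptors of interleukins 2 and 15, averaged 59.9 ± 2.57 CPM against 37.7 ± 3.25 CPM (0.66). In the list of 33 cytokine receptor and JAK-STAT genes 6 were higher (18.2%) and 4 lower (12.1%; 3 and 2 without the block; median 0.04). PIM2 (0.52), STAT6 (0.31) and STAT4 (0.24) were the other higher members, and IL10RB (−0.51), JAK2 (−0.28) and IL2RA (−0.78) were lower besides IL7R.

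In T cell receptor signalling 7 of 37 genes were higher (18.9%, against 6.3% of all genes) and 2 lower (5.41%, against 6.4%), or 1 and 1 without the block, with a median of 0.02. PRKCQ, the kinase that links the receptor to NF-kappa-B, stood at 76.1, 82.5 and 85.6 CPM under siRNA1, against 52.1, 55.8 and 62.6 CPM under siRNA2 and 52.6, 39.8 and 48.9 CPM under NTC (0.64, SE 0.09, edgeR adjusted p = 3.32e-05). CD3G, a chain of the receptor complex, had 166, 168 and 160.1 CPM under siRNA1, against 217, 222 and 227 CPM under siRNA2 and 218, 235 and 209 CPM under NTC (−0.44, SE 0.05, adjusted p = 7.41e-06), and SH2D1A (−0.34) was the other lower gene. Neither PRKCQ nor CD3G overlapped between the groups. Of 20 NF-kappa-B genes and targets 8 were higher (40%) and 2 lower (10%; 1 and 0 without the block; median 0.12). MAP3K8, a kinase upstream of ERK signalling, stood at 45.1, 36.2 and 44.3 CPM under siRNA1, against 20.6, 20.2 and 23.8 CPM under siRNA2 and 17.7, 18.7 and 21.1 CPM under NTC (1.03, SE 0.07, adjusted p = 6.29e-09). TRAF1 (0.65) and NFKB1 (0.31) rose with it, and TNFAIP3 (−0.23), an inhibitor of the pathway, and LTB (−0.26) were lower.

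Regulators of Ras and adhesion genes were mixed. Of 14 Ras GTPase-activating proteins and regulators, DAB2IP, RASGRP2 (−0.79) and SPRED2 (−0.67) were lower (21.4%, against 6.4% of all genes) and RASAL3 (0.49) was higher (7.14%, against 6.3%), or 2 and 1 without the block, with a median of −0.14. DAB2IP and SPRED2 restrain the Ras pathway, whereas RASGRP2 activates the related GTPase Rap. Among 18 integrins and selectin ligands, ITGB7 (1.03), the beta chain of the gut-homing integrin, ITGA2 (0.27) and ICAM1 (0.34) were higher, and 3 were lower, ITGA6 (−0.82) and ITGA4 (−0.37) among them (16.7% each way; 1 each way without the block; median −0.04).

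Interferon-stimulated genes, which cells can induce on sensing foreign RNA, passed mostly as higher, with the calls resting on the block. Of 45 tested, 19 were higher (42.2%) and 6 lower (13.3%), with a median log2 fold change of 0.13, and without the block 4 were higher and 0 lower. RSAD2, an antiviral enzyme, stood at 24.2, 18.2 and 25 CPM under siRNA1, against 13.1, 9.45 and 15 CPM under siRNA2 and 14.4, 11.8 and 15.6 CPM under NTC (0.76, SE 0.07, edgeR adjusted p = 3.07e-07). All siRNA1 libraries lay above the others, with replicate 2 lowest in each label. GBP2 (1.30), GBP1 (0.45) and IFITM1 (0.46), whose relatives IFITM2 and IFITM3 could share its reads, were also higher. OASL (−0.78), HERC5 (−0.35), MX2 (−0.23) and IRF1 (−0.21) were among the lower members.

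Lists of the cell cycle and of growth differed in direction. Of 40 G2/M and spindle genes 12 were higher (30%) and 1 lower (2.5%; 1 and 0 without the block; median 0.13), such as AURKB (0.33), MAD1L1 (0.35) and UBE2C (0.30), and KIF11 (−0.24) as the lower one. Of 38 G1/S and DNA replication genes 3 were lower and none higher (2 without the block; median −0.03), and the 7.89% lower is near the 6.4% of all genes: DNMT1, the maintenance DNA methyltransferase, averaged 510.1 ± 58.7 CPM against 731 ± 55.5 CPM (−0.53), UHRF1, its partner, 489 ± 38.8 CPM against 656 ± 55.6 CPM (−0.44), and MCM6 differed by −0.17, a call lost in 5 of the 9 fits that leave out 1 library. Of 33 MYC and nucleolar genes 10 fell (30.3%) and none rose (3 without the block; median −0.14), TERT with the largest fold. ODC1, the first enzyme of polyamine synthesis, stood at 150.1, 159 and 145 CPM under siRNA1, against 205, 229 and 217 CPM under siRNA2 and 223, 219 and 226 CPM under NTC (−0.55, SE 0.06, edgeR adjusted p = 1.54e-06), so its groups did not overlap. None of 78 ribosomal protein genes (median 0.01) and none of 13 genes of the mitochondrial genome (median 0.10) passed.

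Stress and metabolic lists are read against the 12.7% of all genes that passed. In the ATF4 and unfolded protein response list 6 of 30 were higher, PPP1R15A (0.47), SLC7A11 (0.58) and DDIT3 (0.39) among them, and ERN1 (−0.27) was lower (23.3% in all; 1 and 0 without the block; median 0.05). Of 28 p53 targets and BCL2 family genes BMF (0.59), BTG2 (0.27) and BCL2A1 (0.53) were higher and BCL2L1 (−0.45), which protects cells from apoptosis, and GADD45B (−0.50) were lower (17.9%; 0 without the block; median −0.02). Of 25 immediate-early genes KLF10 (0.50), BTG2 and JUND (0.22) were higher and MYC and DUSP1 (−0.37) lower (20.0%; 1 and 0 without the block; median 0.09). Among 28 glycolysis and hypoxia genes EGLN3 (0.55), PKM (0.21) and ENO2 (0.19) were higher and HK2 (−0.40) lower (14.3%), and among 23 cholesterol synthesis genes LSS (0.25) and SREBF2 (0.19) were higher (0 without the block in either list; medians 0.09 and 0.04). The 14.3% of glycolysis and hypoxia genes that passed is near the 12.7% of all genes. The 8.7% of cholesterol synthesis genes higher is near the 6.3% of all genes. With 1 library left out SREBF2 lost its call in 6 of 9 fits, ENO2 in 5, and DUSP1, LSS and HLA-E in 4 each.

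The RNA interference machinery, on which an siRNA acts, had 4 lower members of 14 tested and no higher one (28.6% lower, against 6.4% of all genes; 1 without the block; median −0.11). AGO4, an Argonaute protein, stood at 40.1, 37.6 and 42.6 CPM under siRNA1, against 59.3, 55.3 and 59.7 CPM under siRNA2 and 54.7, 57.9 and 54.9 CPM under NTC (−0.52, SE 0.06, edgeR adjusted p = 2.19e-06). The groups did not overlap. AGO2, the Argonaute that cleaves targets, averaged 179 ± 21.3 CPM against 226 ± 29.7 CPM (−0.35, adjusted p = 0.00782; 0.117 without the block), and TNRC6A (−0.25) and TARBP2 (−0.25) were lower.

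Among lncRNA genes AC011893.1 (chromosome 2 from 135820191 to 135823087) stood at 41.8, 52.2 and 37.3 CPM under siRNA1, against 90.8, 109.8 and 93.1 CPM under siRNA2 and 101, 126 and 99.2 CPM under NTC (−1.25, SE 0.07, edgeR adjusted p = 1.68e-10). Next in size among lower lncRNAs were AC022167.3 (−1.23) and LINC01120 (−1.05), followed by AP000345.2 (−0.99) and HHIP-AS1 (−0.92), and the higher ones were LINC002481 (1.24), HDAC2-AS2 (1.17), EPHA1-AS1 (1.02), LINC00963 (0.91) and TNRC6C-AS1 (0.87). In counts made without strand, reads of an antisense gene and its partner cannot be told apart.

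Seed pairing of small RNAs acts mainly through 3′ UTRs, and every 7-base word was searched in the longest annotated 3′ UTR of 12241 genes, on the transcript strand. The word chosen by the rule, the largest difference in share between the lower genes and the rest, was ATATTTT, held by 54.3% of 1025 lower genes against 37.4% of the others. It did not keep its share across replicate numbers, at 44.5%, 46.0% and 58.6% of the 1025 genes ranked lowest in replicates 1, 2 and 3 alone. Fold changes in replicate 3 also followed the A and U content of the 3′ UTR: its median log2 difference was 0.16 in the fifth of genes with the least A and U and −0.11 in the fifth with the most, against 0.01 and −0.01 in replicate 1 and −0.00 and −0.00 in replicate 2. Its part in the other results was not tested.

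A second word, GCAGTAC, was chosen after seeing the data, as the one with the largest ratio of shares among words in at least 10% of the lower genes. It was found in the 3′ UTR of 201 of 1025 lower genes (19.6%), 25 of 907 higher genes (2.76%) and 3.79% of all genes other than the lower ones. Because the word was picked from these fold changes, its counts describe the libraries and are not a test. It held a similar share in each replicate number ranked alone, 16.4%, 17.2% and 18%, and was also the word with the largest difference in replicates 1 and 2. The first copies in 6 lower genes with the word are shown. These genes had the largest folds among those that met the limits on level, range, location and site given with the processing. TOP1MT, a lower gene with the word and a log2 fold change of −1.13, fell outside these limits. The copies shown come from GENCODE 29 transcripts on GRCh38, written 5′ to 3′ on the transcript strand, with the word in capitals.
TC2N, chr14:91780471-91780499, minus strand: gatttttaaaaGCAGTACtcctagggaaa
ALCAM, chr3:105575544-105575572, plus strand: taatttatcaaGCAGTACatgaaagtgta
SCAMP1, chr5:78476412-78476440, plus strand: ttatataatatGCAGTACattatccaaaa
TLN1, chr9:35697626-35697654, minus strand: cgcccagtcccGCAGTACatcccctgtcc
LBH, chr2:30258650-30258678, plus strand: tctgcccagctGCAGTACtcacgccccat
THG1L, chr5:157739720-157739748, plus strand: tttttttaatcGCAGTACtatttttataa

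These genes differ in kind. TC2N is given above, and TLN1 encodes talin, which couples integrins to actin. TLN1 stood at 233, 225 and 298 CPM under siRNA1, against 452, 511 and 448 CPM under siRNA2 and 429, 518 and 514 CPM under NTC (log2 fold change −0.94 with SE 0.08, edgeR adjusted p = 4.21e-08). ALCAM, an adhesion molecule that binds CD6, averaged 2.93 ± 0.897 CPM (SD, n = 3) against 5.55 ± 0.881 CPM (SD, n = 6), SCAMP1, a membrane traffic protein, 20.8 ± 2.13 CPM against 39.9 ± 5.5 CPM, LBH, a transcriptional regulator with 2 copies, 25.7 ± 4.84 CPM against 48.1 ± 8.08 CPM, and THG1L, a tRNA-modifying enzyme, 7.53 ± 0.829 CPM against 14.1 ± 1.91 CPM. None of the 6 genes overlapped between the groups, which the rule that chose them required. Of the 15 lowest protein-coding genes, TC2N and TOP1MT held 1 copy each and the others 0, DAB2IP, TSHR and ADGRG1 among them. Of 58 searched lower genes named by the rule 10 held the word, of which AGO4 held 2 copies, and of 52 higher ones 4 held it, CHDH, CNR2, RARA and CD28.

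Over the 10404 searched genes at 1 CPM or more, lower calls were more frequent where the 3′ UTR held more copies. Part of this is given by the choice of the word, which was picked for its share among the lower genes. Its cause was not tested. Among 9851 genes with 0 copies the median log2 fold change was −0.01 and 8.08% were lower, among 520 genes with 1 copy it was −0.13 with 34.8% lower, and among 33 genes with 2 or more it was −0.15 with 48.5% lower and 0 higher. Where a copy was followed by A the median was −0.16 and 43.8% of 192 genes were lower. The reverse complement word GTACTGC, in genes without the word itself, gave a median of −0.02 and 11.3% lower of 557 genes. Long 3′ UTRs hold more words of any kind, so the shares were also taken by length. Up to 1000 bases 44.7% of genes with the word and 6.11% of genes without it were lower, and above 4000 bases the shares were 30.2% and 13.1%.

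By replicate number, the median log2 difference of genes with the word was −0.11, −0.11 and −0.13 in replicates 1, 2 and 3. Against NTC alone it was −0.13 and against siRNA2 alone −0.15, comparisons that share the libraries labelled siRNA1, while between siRNA2 and NTC it was 0.02. The word was held by 33 of 101 lower genes that differed 1.5- to 2-fold, by 3 of 18 that differed more, and by 161 of 874 that differed less. None of the 3 annotated TLX1 transcripts held GCAGTAC. Of 2545 mature human miRNAs in RefSeq 0 had a seed (bases 2 to 8) that is its reverse complement. Genes higher under siRNA2 than NTC, at unadjusted edgeR p under 0.05, had another leading word, AATCACT, also picked from these libraries. It was held by 219 of 489 such genes (44.8%) against 13.6% of the others. The next words in these genes were rich in A and U, such as AAAAAAT at 67.3% against 39.7%. Among searched genes at 1 CPM or more, the median 3′ UTR was 3269 bases with AATCACT and 1117 bases without it. Shares by length were not taken for this word. Of the 2545 miRNAs 1, hsa-miR-8062, had a seed that is the reverse complement of AATCACT. TLX1 transcripts ENST00000370196.10 and ENST00000467928.2 held 1 copy of AATCACT each, and ENST00000463716.3 held 0. The cause was not tested for either word.

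**Figure D5:**
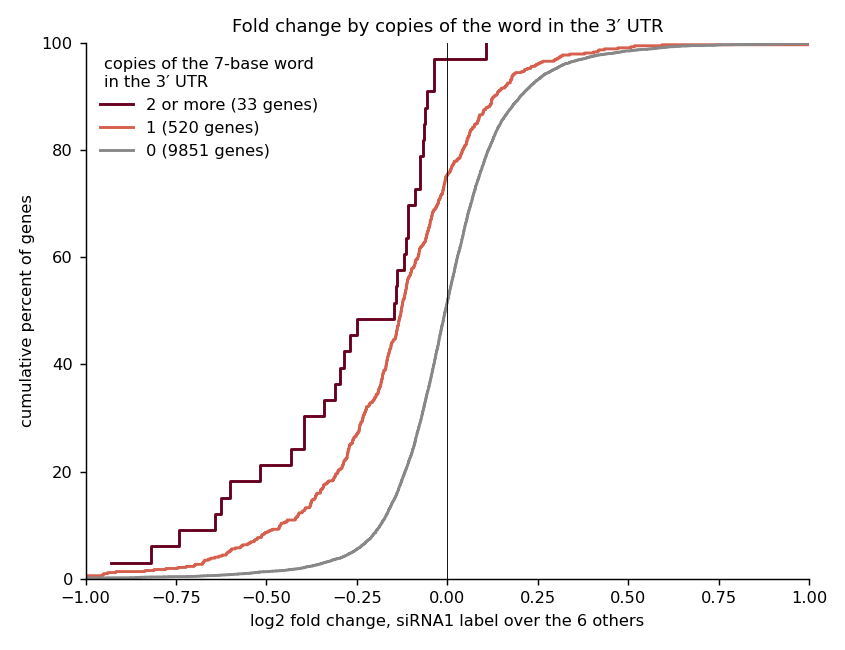
Cumulative percent of genes (vertical axis) by log2 fold change, siRNA1 label over the 6 others (horizontal axis, shown from −1 to 1), for searched genes at 1 CPM or more, split by copies of the 7-base word in the 3′ UTR: 33 genes with 2 or more, 520 with 1 and 9851 with 0. The curve of genes with 1 copy (median −0.13) lies left of that of genes with 0 copies (median −0.01), and the curve of genes with 2 or more (median −0.15) lies left of both.

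Over the 35 lists, 107 of 709 distinct genes tested were higher and 84 lower, 191 together, and 55 passed without the block, where over all genes tested 12.7% passed with the block and 2.6% without it. Without the 3 libraries of replicate 3, 170 passed with the block. Of the 120 genes named by the rule, 57 were higher and 63 lower, and all 120 moved the same way in the 3 replicate numbers, which the rule largely fixed for the genes it took as separated. For the rest of the named genes the test with the block favours such agreement too. The call was kept in all 9 fits that leave out 1 library for 96 of them, and in all 22 alternatives for 71. The 3 libraries labelled siRNA1 lay outside the range of the 6 others at 84 of the 120, which the rule itself required of some.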

How the data were processed

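RNA sequencing counts of 9 libraries of ALL-SIL cells were analysed, 3 per label. The values are the counts deposited by the authors: whole numbers of reads per gene, without normalization, as the values themselves show. Per the labels' protocols, the mRNA kit does not mark strand, so the unstranded count was used, and the 4 summary lines of each table, which name no gene, were left out. Reads were placed on GRCh38, per the submitters' processing notes, while the sources used here name no aligner and no annotation. Gene rows held 75.5% to 77.6% of reads. GENCODE 29 named 57492 of 58096 identifiers, and the 604 others held 0.0317% of counts. CPM scales each library to its total of gene counts. Reads carry no molecular identifiers and so are not independent molecules, and at these depths counting error is small above a few CPM.

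edgeR 4.0.16 (R 4.3.3) was run with TMM factors between 0.975 and 1.04, a filterByExpr minimum count of 10 and minimum total of 15, and a quasi-likelihood test of the 3 libraries labelled siRNA1 against the 6 others in 1 fit, with replicate number as a block and Benjamini-Hochberg adjusted p under 0.05. A standard error is the size of the log2 fold change divided by the square root of F. TLX1 chose the libraries and was left out of all counts. siRNA2 was set against NTC in a fit of all 3 labels. The labels give the replicate numbers. Over 12553 genes the deviations of same-numbered libraries correlated at 0.569 to 0.819, which was taken as pairing. No replicate repeated another (chi-square per degree of freedom 32.0 to 53.8). The test was tried on counts simulated without differences between replicate numbers, so that trial does not cover what the block does in these libraries. The word search was tried on a planted word under the largest-difference rule alone. The later rule that chose GCAGTAC was not tried in this way.

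The libraries, the gene lists and the tests were chosen with earlier results of these data known. Named genes were those with adjusted p under 0.05, mean CPM of at least 1 and the siRNA1 libraries outside the range of the 6 others: the 15 protein-coding and 5 lncRNA genes with the largest folds each way and the 5 with the smallest p each way. Up to 4 members per list, by smallest p, and 6 lower genes with the word were added. These 6 had the largest folds among those that met the same CPM and range limits, lay off chromosome 8 and had an unbroken site. Where 5 or fewer members of a list passed in a direction, the others of them were named after their values were seen (2 genes are not reported here), as were RAG1, CD1B, CD4, CD8A, CD8B, TCF7, TRIB2, DTX1, MX2 and IRF1. Alternatives were RLE factors, library size alone, 2 other filters, DESeq2 1.42.0, limma-voom (limma 3.58.1), no block, each library or replicate number left out, and either label alone as reference.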

Additional observations from a re-analysis of the deposited data

Results flagged for a closer look

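Among the 6 libraries labelled siRNA2 or NTC, 1 library stood apart from the other 5 at 6 of 121 genes checked for this, and chance alone flags about 1 in 20 such sets. In siRNA2 replicate 2, CXCR3 stood at 3.75 CPM with the nearest other library at 2.28 CPM, and SNAI2 at 2.05 CPM with the nearest at 1.22 CPM. In siRNA2 replicate 1, EPHA1-AS1 stood at 1.46 CPM with the nearest at 1.03 CPM, and IL2RB at 44.0 CPM with the nearest at 37.7 CPM. In NTC replicate 3, UHRF1 stood at 765 CPM with the nearest at 658 CPM, and SREBF2 at 333 CPM with the nearest at 297 CPM. The high value at CXCR3, SNAI2, EPHA1-AS1, IL2RB and SREBF2 lies towards the libraries labelled siRNA1 and at UHRF1 away from them.

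ADGRG1 differed between the labels pooled as the reference: siRNA2 against NTC gave a log2 fold change of −0.46 (edgeR quasi-likelihood adjusted p = 0.00425), in the same direction as siRNA1 against the 6 others and lower in 3 of 3 replicate numbers.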

How the results depend on the processing

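The number of genes called with the siRNA1 label, 2357 with the replicate block (1169 higher, 1188 lower), was 483 without it (197 and 286). It ranged from 1110 to 2812 with 1 library left out (higher 521 to 1258, lower 589 to 1554) and from 1018 to 1745 with 1 replicate number left out (higher 493 to 828, lower 525 to 917). RLE factors, library size alone, the other filters, DESeq2, limma-voom, the 3-label fit and either label alone as reference gave 2285 to 2728, and scaling moved the median log2 fold change by −0.006 (RLE) and 0.010 (library size alone). Between siRNA2 and NTC, 28 genes passed, 105 with DESeq2, 158 without a filter beyond 1 count, 0 without the block, 4 to 108 with 1 library left out and 6 to 93 with 1 replicate number left out. List members called fell to 55 without the block, against 191 with it. The share of lower genes with ATATTTT, 54.3%, was 44.5%, 46.0% and 58.6% by replicate number, 47.8% against NTC alone and 58.8% against siRNA2 alone. For the genes named, no direction turned in any of the alternatives, 2487 gene-level repeats kept the call and 152 lost it, 49 of these without the block and 20, 11 and 13 without the siRNA1 library of replicate 1, 2 and 3. The cause of these changes was not tested. Genes under 1 CPM have few reads even at this depth.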

Other observations

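Among the 10404 genes searched at 1 CPM or more, the genes called with the siRNA1 label were spread unevenly over 3′ UTR composition and length. In the fifth of genes with the lowest A and U content 12.8% were higher and 5.81% lower, and in the fifth with the highest content 4.23% were higher and 12.3% lower. In the fifth with the shortest 3′ UTRs 9.5% were higher and 6.33% lower, and in the fifth with the longest 5.24% were higher and 14.7% lower. Over all these genes 7.85% were higher and 9.54% lower. Composition and length are related across genes, the A and U dependence was seen mainly in replicate 3, and their part in the calls was not tested.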
